A study of Mus musculus with 8 samples.

Results

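The genotype difference in treated skin was measured in 4 of the 8 libraries of a study of REDD1 in mouse epidermis: the 2 treated REDD1 knockout libraries and the 2 treated wild-type libraries, matched by treatment, with the 4 vehicle libraries left out of the comparison. RNA sequencing was done on total RNA from epidermis scraped off shaved back skin of female mice. Knockout and wild-type animals shared a mixed F1 background of C57Bl and 129. Within each genotype 1 library came from skin that received TPA (12-O-tetradecanoyl-acetate as the labels spell it, 4 ug in 200 ul acetone) and 1 from skin that first received FA (fluocinolone acetonide, 2 ug in 200 ul acetone) and TPA 1 h later. Skin was taken 24 h after TPA. The vehicle libraries, 2 per genotype, came from skin given acetone alone (200 ul). The sources used here do not give the age of the mice, the way the knockout was made or the number of animals behind a library. With 1 library per genotype and treatment, the treated comparison has no replicates. Its p-values and SEs rest on how far the genotype difference varied between the 2 treatments and on spread borrowed from other genes. They do not measure the spread between animals. Fits of all 8 libraries drew on the spread between vehicle libraries, which may be technical. The 4 treated libraries held between 16965316 and 22560098 counts. A floor of 3 counts, which covers counting error only, corresponded in the 8 libraries to between 0.133 and 0.178 CPM (counts scaled to the size of the library). Gm26917, a noncoding transcript, held 16.8% to 24.2% of the counts in the treated libraries. The labelled tissue was checked on 12 keratinocyte markers, whose sums were 31953 and 25715 CPM under TPA and 49097 and 42468 CPM under FA+TPA. Here and in all pairs of levels that follow, the wild-type library comes first and the knockout library second. The basal keratin gene Krt14 stood between 5523 and 8156 CPM in the 4 libraries.

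REDD1, the product of Ddit4, is a small stress-induced protein that restrains the growth kinase complex mTORC1 by way of the TSC1 and TSC2 proteins. Glucocorticoids induce Ddit4 in many tissues, and in skin REDD1 is known for its part in glucocorticoid-induced atrophy. TPA is a phorbol ester that activates protein kinase C, thickens the epidermis, inflames the skin and promotes tumours. FA is a potent topical glucocorticoid that dampens this response.

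Ddit4 (ENSMUSG00000020108; mm10, chr10:59949669-59951834, minus strand, protein coding) checks the labels. Its levels were 65.4 and 4.44 CPM under TPA, and 89.8 and 7.19 CPM under FA+TPA. Both knockout libraries lay below both wild-type libraries, and all genes were tested in 1 fit that pairs the libraries by treatment (edgeR quasi-likelihood test). There the Ddit4 difference, knockout minus wild type, was -3.75 ± 0.12 on the log2 scale (SE; adjusted p = 3.2e-08). Reads were still counted on the gene in each knockout library, and the sources used here do not say which bases the knockout lacks. The paralogue Ddit4l was at 0.251 and 0.762 CPM under TPA and at 0.696 and 0.6 CPM under FA+TPA (edgeR adjusted p = 0.8). None of 22 regulators of mTORC1 was called, with a median difference of 0.04 beside -0.01 over all genes tested. Since 1.87% of all genes tested were called, 0 of 22 does not set this list apart. The partners of the TSC complex, Tsc1 (0.08 ± 0.10) and Tsc2 (-0.15 ± 0.09), did not pass, nor did the sestrins Sesn1 (0.04 ± 0.11), Sesn2 (0.04 ± 0.10) and Sesn3 (0.38 ± 0.11) or the redox regulator Txnip (0.25 ± 0.11). The edgeR adjusted p of these genes was at least 0.12.

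Across the transcriptome, a limited set of genes differed between knockout and wild-type epidermis in the fit of both treatments. Not every call holds under both: the log2 ratio of Spp1 was 3.12 in the TPA pair and 0.18 in the FA+TPA pair. Of 17900 genes tested, 334 passed an adjusted p of 0.05 (edgeR; 1.87%), 152 higher (0.849%) and 182 lower (1.02%) in knockout. Of these, 78 higher and 100 lower genes differed at least 2-fold in the fit. The fit had 1 residual degree of freedom, so the number of calls rests on the spread borrowed from other genes: it was 98 with DESeq2 (26 higher, 72 lower), 106 with the spread of all 8 libraries (25 higher, 81 lower) and 0 without the treatment term, where 560 genes had an unadjusted p under 0.05. Scaled by library size alone, the median gene moved by 0.11, and 479 genes were higher and 172 lower. The sign of a list median within that distance of 0 therefore depends on the scaling. Libraries were left out in the fit of all 8 libraries, where 106 were called with none left out. That fit called 28 genes without the wild-type TPA library, 29 without knockout TPA, 66 without wild-type FA+TPA and 65 without knockout FA+TPA. Of the 334 calls, 93 were kept by DESeq2 and 105 by the fit of all 8 libraries, and the direction was the same for each of the 334 in both.

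The additive fit favours genes that differ the same way under both treatments: 151 of the 152 higher and all 182 lower genes had 1 sign in the TPA pair and in the FA+TPA pair. The exception was the interferon-inducible gene Slfn4, at 2.12 in the TPA pair and -0.05 in the FA+TPA pair. The same held for 57.1% of all genes tested. The fit uses both pairs, so this count describes the calls and supports nothing. The median log2 ratio of the higher genes was 0.97 in the TPA pair and 0.75 in the FA+TPA pair, and that of the lower genes was -1.04 and -0.94. By fold alone, with no test and 0.5 CPM added to each value, 18 genes (0.101%) were at least 2-fold higher in knockout under both treatments and 80 (0.447%) at least 2-fold lower. With 0.1 CPM added the counts were 89 and 113.

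**Figure D1:**
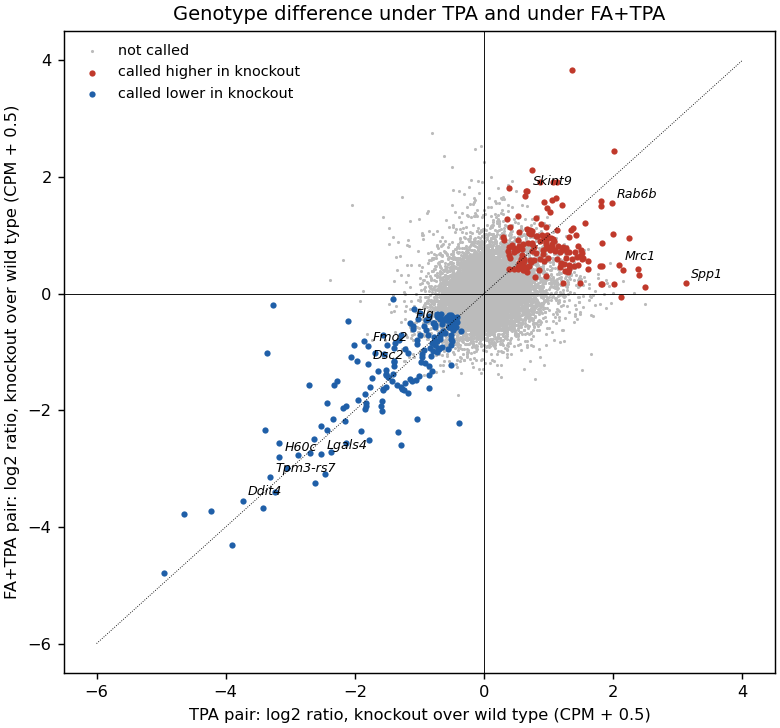
Each point is 1 of 17900 genes, placed by its log2 ratio of knockout over wild type in the TPA pair (x axis) and in the FA+TPA pair (y axis), from CPM + 0.5; red and blue mark the 152 genes called higher and the 182 called lower, and the dotted line marks equal ratios. Blue points reach -2 and beyond on both axes along the dotted line, whereas some red points, such as Spp1 and Mrc1, lie far along the TPA axis and near 0 for FA+TPA.

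Lgals4 and H60c were among the genes with the largest falls in knockout epidermis. Lgals4 (ENSMUSG00000053964; chr7:28833854-28841708), which encodes the galactoside-binding protein galectin-4, was at 47.4 and 7.84 CPM under TPA, and at 79.1 and 11.3 CPM under FA+TPA. The 2 groups did not overlap, as in 14.5% of all genes with knockout lower and 13.1% with knockout higher, and the difference was -2.70 ± 0.12 (edgeR adjusted p = 2.1e-07). H60c (ENSMUSG00000091618; chr10:3256208-3267771), a ligand of the activating receptor NKG2D that keratinocytes make, was at 23 and 2.11 CPM under TPA and at 42.1 and 5.64 CPM under FA+TPA (-3.13 ± 0.17, edgeR adjusted p = 1.8e-06). Both genes were called in 15 of 16 alternative fits. Clec2f, annotated as a transcribed pseudogene of a C-type lectin family, was at 9.54 and 2.33 CPM under TPA and at 7.09 and 1.56 CPM under FA+TPA (-2.08 ± 0.23). Its call held in 10 of 15 alternative fits.

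Other lower genes have varied roles. Dsc2, a desmosomal cadherin that joins keratinocytes to each other, was at 84.6 and 23.9 CPM under TPA, and at 29.4 and 12.4 CPM under FA+TPA (-1.55 ± 0.14, edgeR adjusted p = 0.00012). The knockout TPA library lay below the wild-type FA+TPA library, so the groups did not overlap. Camk4, a calcium and calmodulin-dependent kinase, went from 16.4 to 4.21 CPM under TPA and from 12.2 to 2.7 CPM under FA+TPA. Bfsp1, which encodes a beaded filament protein best known from the eye lens, went from 14.6 to 3.72 and from 6.46 to 1.62 CPM. Krtap3-2, a keratin-associated protein of hair, was at 3.39 and 0.538 CPM under TPA and at 28.8 and 5.22 CPM under FA+TPA. The order of genotypes was the same in both pairs, but the groups overlapped across treatments. Fut2, a fucosyltransferase, was lower by 1.12 on the log2 scale (-1.12 ± 0.12), and Atp13a4, a P5-type ATPase, also fell (-1.10 ± 0.11). Among the genes named, the largest fitted fall was that of BC018473, annotated as an antisense transcript, at 8.34 and 0.0896 CPM under TPA and at 16.5 and 0.36 CPM under FA+TPA. Its knockout TPA value was under the floor of 3 counts, and without a known strand setting its reads are uncertain. AI506816, a noncoding transcript, went from 26.6 to 3.85 CPM and from 17.9 to 2.76 CPM (-2.74 ± 0.17).

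**Figure D2:**
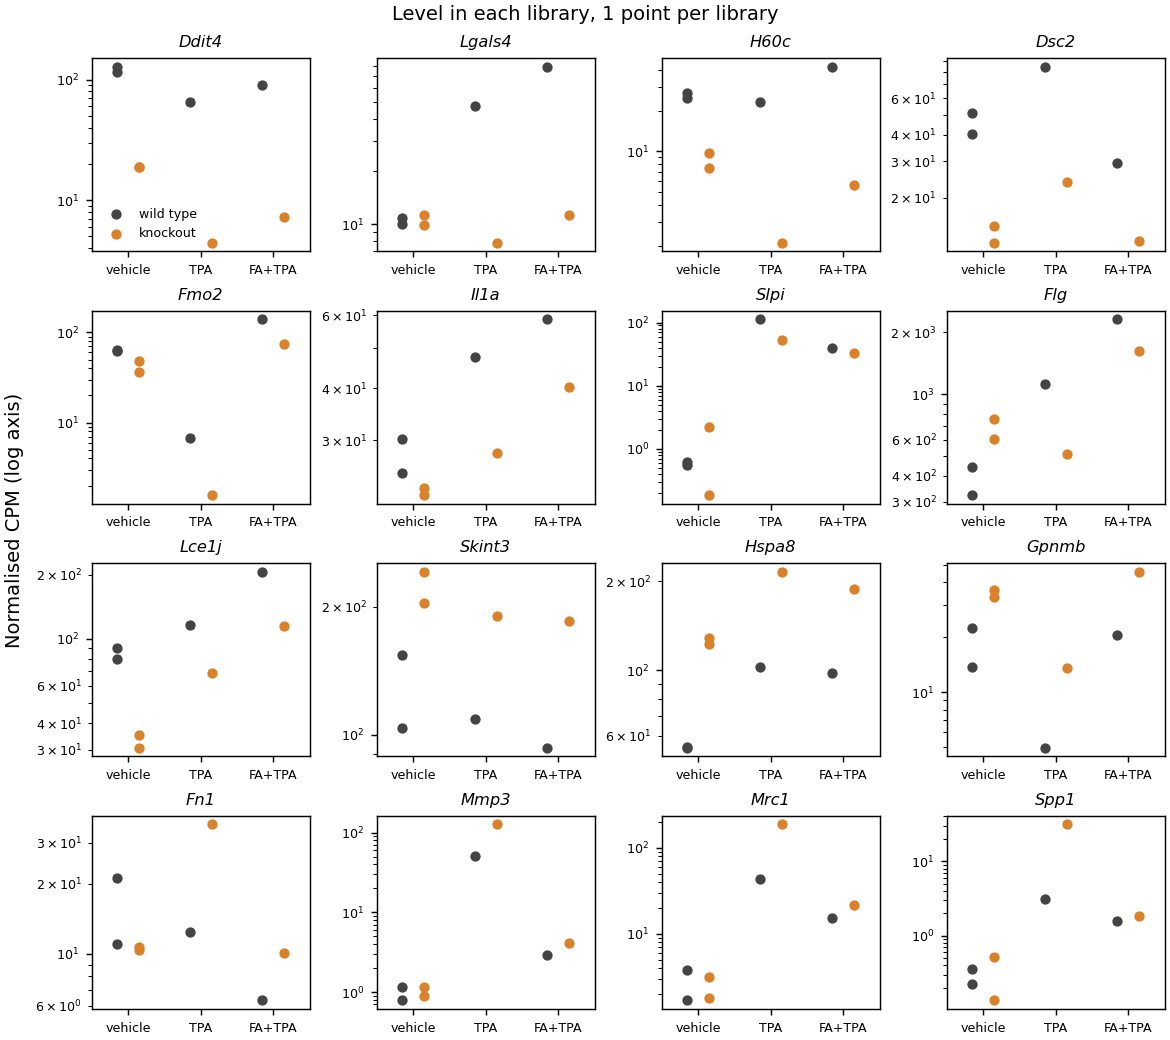
Each panel shows 1 gene, each point 1 library, as normalised CPM on a log axis whose range differs between panels; dark points are wild type and orange points knockout, for vehicle (2 libraries per genotype), TPA and FA+TPA (1 each). Ddit4, H60c and Dsc2 were lower in knockout in each of the 3 settings, Lgals4 under TPA and FA+TPA alone, and Mrc1, Spp1 and Mmp3 stood apart by genotype mainly under TPA.

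Part of the list consists of genes that share sequence with near-identical copies, where reads can have been split or dropped. To describe this, the share of a gene's 31-base transcript words that also occur in another gene was computed. Pseudogenes were called in 6.38% of 753 cases and protein-coding genes in 1.9% of 13760. Among pseudogenes with over 50% shared words the share called was 16.8% of 161. Tpm3-rs7, a copy of a tropomyosin gene with 74.3% shared words, was at 14.3 and 0.986 CPM under TPA and at 10.3 and 0.719 CPM under FA+TPA (-3.83 ± 0.24). Ywhaq-ps1, a pseudogene of a 14-3-3 protein inside the gene Rsf1 with 8.43% shared words, went from 15.7 to 1.7 CPM and from 14 to 1.62 CPM (-3.15 ± 0.20). Of 88 protein-coding genes of the cytosolic ribosome by name, 5 were lower (Rps3a1, Rpl29, Rpl34, Rpl3 and Rps2) and 1 higher (Rps15a). Of all genes tested 1.02% were called lower and 0.849% higher. Rps3a1 (70.9% shared words) differed by -2.34 ± 0.19 and Rpl34 (12.5%) by -1.47 ± 0.11. Each of the 5 lower ribosomal genes had been lower in both knockout vehicle libraries than in either wild-type one. The same held for 18.5% of all genes tested and for 76.4% of all genes called lower. Over all 88 the median was -0.06. Hist1h2bm, a histone gene (60.3% shared words), differed by -1.58 ± 0.20, and the ribosomal pseudogene Rps13-ps1 (93.4%) was higher (0.91 ± 0.11). The levels of all of these are uncertain. Among protein-coding genes with at most 10% shared words, tested on their own, 14 of 10910 passed (4 higher, 10 lower), and 1320 had an unadjusted p under 0.05. Of the 334 calls, 193 lay in this set, and all 193 kept their direction there. For Bfsp1 the difference was -1.98 in this set and -1.97 in the fit of all genes, and for Atp13a4 -1.11 and -1.10. In the fit of all genes 1.77% of protein-coding genes with at most 1% shared words were called, and likewise 1.77% of those with 1% to 10%. That alternative was chosen after the data were seen.

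**Figure D3:**
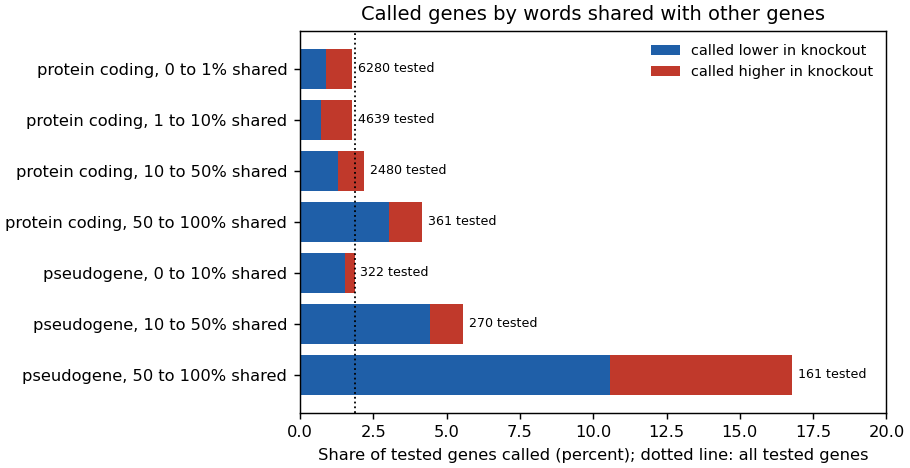
Bars give the percentage of tested genes called lower (blue) and higher (red) in knockout, by gene class and by the share of 31-base words found in other genes, with the number tested beside each bar. The share called goes from 1.77% of protein-coding genes with at most 1% shared words to 16.8% of pseudogenes with over 50%, against 1.87% of all genes (dotted line).

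Epidermal differentiation genes, which build the cornified envelope of the skin barrier, were examined as a list. Of 52 measured members, 8 fell and 0 rose, beside 1.02% of all genes tested called lower and 0.849% called higher. The median was -0.37, and 49 had a negative value. In the fit of all 8 libraries 0 members passed, and DESeq2 called 6 lower and 1 higher. The filaggrin gene Flg (ENSMUSG00000102439; chr3:93273523-93293686), whose product bundles keratin filaments and is broken down to skin moisturising factors, was at 1127 and 509 CPM under TPA, and at 2315 and 1631 CPM under FA+TPA (-0.82 ± 0.15, edgeR adjusted p = 0.021). The order of genotypes was the same in both treatments, but the knockout FA+TPA library lay above the wild-type TPA library. In vehicle skin Flg went the other way, with 442 and 323 CPM in wild type and 605 and 756 CPM in knockout.

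The late cornified envelope genes of the Lce1 cluster on chromosome 3 made up most of the called members. Counted by name, 7 of 14 Lce1 genes were lower (Lce1d, Lce1e, Lce1f, Lce1g, Lce1h, Lce1i and Lce1j), 1 was higher (Lce1k), and the median was -0.43. Of all genes tested 1.02% were called lower and 0.849% higher. Lce1j and Lce1k are not members of the differentiation list. Lce1j was at 116 and 68.9 CPM under TPA and at 206 and 115 CPM under FA+TPA (-0.79 ± 0.09, edgeR adjusted p = 0.0013). Lce1h was at 107 and 75.3 CPM under TPA and at 194 and 118 CPM under FA+TPA (-0.60 ± 0.10). Lce1k was at 73 and 116 CPM and at 108 and 139 CPM (0.52 ± 0.10). The cluster's genes resemble each other, with 42% of the words of Lce1j and 8.86% of those of Lce1k found in other genes, so reads may be divided between them. Lce1f, Lce1d and Lce1e passed in at most 6 of 15 alternative fits. Calml3, a calmodulin-like protein of keratinocytes, also fell (-0.45 ± 0.10). The loricrin gene Lor, which encodes the main envelope protein, was at 730.5 and 437 CPM under TPA and at 1787 and 1403 CPM under FA+TPA but did not pass (edgeR adjusted p = 0.062).

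Stress keratins and small proline-rich proteins, which activated keratinocytes switch on, held 2 lower and 0 higher genes of 18. Of all genes tested 1.02% were called lower. Sprr1b, a precursor of the envelope, was at 229 and 142 CPM under TPA and at 252 and 185 CPM under FA+TPA (-0.56 ± 0.10, edgeR adjusted p = 0.019). Sprr2h was at 119.6 and 59.8 CPM and at 121 and 96.6 CPM (-0.65 ± 0.14). The list as a whole differed between the treatments, with a median log2 ratio of -0.77 in the TPA pair and 0.30 in the FA+TPA pair. Sprr2a3, with 74% shared words, was called in the fit although its level differed in the TPA pair (124 and 46.4 CPM) and hardly in the FA+TPA pair (4.68 and 4.38 CPM). The basal and hemidesmosome list (0 of 15) and the cell cycle list (0 of 40; 30 members negative) had no called member.

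The promoter windows of called genes were searched for the AP-1 site TGANTCA, since TPA acts in part through this factor. Windows run from 250 bases before to 50 bases after each start in RefSeq (GRCm38.p6). Of 32851 windows 7.81% held the site on either strand. Of the genes called lower and matched by symbol, 20 of 106 (18.9%) held it, and of those called higher 11 of 100 (11%), beside 7.06% of 11562 matched genes tested. A match is a description of letters and no evidence of binding. The windows shown are those of the targeted gene and of 5 called genes with a match, written 5′ to 3′ on the gene's strand with the AP-1 match in capitals. Ddit4 (chr10:59951721-59952020, minus) had no match. Flg (chr3:93273296-93273595, plus), Sprr1b (chr3:92438730-92439029, minus) and the cytokine gene Il1a (chr2:129309923-129310222, minus) were lower in knockout. Gpnmb (chr6:49036268-49036567, plus) and Mmp3 (chr9:7445572-7445871, plus) were higher.
Ddit4: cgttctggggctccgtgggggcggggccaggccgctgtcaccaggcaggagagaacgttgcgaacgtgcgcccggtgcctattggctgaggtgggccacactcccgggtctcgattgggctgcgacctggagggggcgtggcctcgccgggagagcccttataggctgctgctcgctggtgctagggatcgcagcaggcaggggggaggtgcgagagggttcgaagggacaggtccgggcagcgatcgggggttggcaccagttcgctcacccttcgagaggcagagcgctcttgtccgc
Flg: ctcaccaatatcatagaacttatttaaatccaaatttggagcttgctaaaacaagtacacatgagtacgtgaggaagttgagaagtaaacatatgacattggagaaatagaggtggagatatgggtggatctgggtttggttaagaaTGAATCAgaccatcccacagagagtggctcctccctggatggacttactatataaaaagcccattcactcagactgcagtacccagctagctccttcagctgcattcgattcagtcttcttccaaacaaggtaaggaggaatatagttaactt
Sprr1b: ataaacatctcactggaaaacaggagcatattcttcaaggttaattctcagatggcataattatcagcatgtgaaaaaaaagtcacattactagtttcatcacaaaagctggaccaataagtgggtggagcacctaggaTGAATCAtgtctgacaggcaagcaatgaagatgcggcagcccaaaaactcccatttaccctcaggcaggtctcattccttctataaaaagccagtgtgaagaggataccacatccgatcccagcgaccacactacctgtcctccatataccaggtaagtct
Il1a: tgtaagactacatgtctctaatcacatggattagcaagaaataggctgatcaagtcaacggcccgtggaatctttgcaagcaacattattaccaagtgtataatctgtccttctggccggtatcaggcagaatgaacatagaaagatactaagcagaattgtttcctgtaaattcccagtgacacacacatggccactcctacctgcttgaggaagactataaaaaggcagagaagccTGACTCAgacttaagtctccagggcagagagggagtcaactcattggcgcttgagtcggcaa
Gpnmb: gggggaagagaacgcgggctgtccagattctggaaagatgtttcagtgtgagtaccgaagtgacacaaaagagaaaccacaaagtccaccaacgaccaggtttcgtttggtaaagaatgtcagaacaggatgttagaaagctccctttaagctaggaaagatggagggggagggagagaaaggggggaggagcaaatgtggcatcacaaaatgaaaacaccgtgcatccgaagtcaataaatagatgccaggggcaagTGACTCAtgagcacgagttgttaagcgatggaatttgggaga
Mmp3: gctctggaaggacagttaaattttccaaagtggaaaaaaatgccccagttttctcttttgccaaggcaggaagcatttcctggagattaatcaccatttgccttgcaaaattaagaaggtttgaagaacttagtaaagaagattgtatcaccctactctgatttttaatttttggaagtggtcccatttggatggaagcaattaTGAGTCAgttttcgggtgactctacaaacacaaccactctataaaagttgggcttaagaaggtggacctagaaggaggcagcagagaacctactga

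Innate defence genes went both ways. Il1a, the alarm cytokine interleukin-1 alpha that keratinocytes store, was at 47.7 and 27.9 CPM under TPA and at 58.6 and 40.3 CPM under FA+TPA (-0.65 ± 0.10, edgeR adjusted p = 0.0085). Both knockout libraries lay below both wild-type ones. Slpi, an antiprotease of inflamed epithelium, was at 112 and 52.8 CPM under TPA and at 40.2 and 33.3 CPM under FA+TPA (-0.69 ± 0.15). S100a7a, an antimicrobial S100 protein, was at 8.22 and 1.52 CPM and at 1.27 and 0.779 CPM. The peptidoglycan-binding gene Pglyrp1 was at 19 and 1.52 CPM under TPA and at 1.52 and 1.26 CPM under FA+TPA. Its log2 ratio was -3.27 in the TPA pair and -0.20 in the FA+TPA pair. The call of Pglyrp1 ended in the fit of all 8 libraries (edgeR adjusted p = 0.14) and with DESeq2. The chemokine genes Cxcl2 (1.51 and 10 CPM) and Ccl4 (0.816 and 4.84 CPM), which draw neutrophils and monocytes, were higher under TPA in knockout. Under FA+TPA Ccl4 was under the floor of 3 counts in both genotypes, and Cxcl2 was at 0.19 and 0.36 CPM. Their calls therefore rest on the TPA pair. In all, 2 of 24 cytokines and chemokines rose and 1 fell, with a median of -0.08. Of 16 antimicrobial genes 1 rose (Lyz2, the lysozyme gene of macrophages) and 2 fell, with a median of -0.24. Of all genes tested 0.849% were called higher and 1.02% lower. Neither the fit of all 8 libraries nor DESeq2 called a member of either list.

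Macrophage and monocyte genes were higher in knockout where they passed, mostly under TPA. All 12 markers were measured, 3 rose (Mrc1, Lyz2 and Itgam) beside 0.849% of all genes tested, and the median was 0.53. Mrc1 (ENSMUSG00000026712; chr2:14229392-14332057), the mannose receptor of macrophages, was at 43.2 and 185 CPM under TPA and at 15.1 and 21.3 CPM under FA+TPA (1.43 ± 0.26, edgeR adjusted p = 0.02). The wild-type TPA library lay above the knockout FA+TPA library, so the groups overlapped across treatments. The marker list summed to 147 and 352 CPM under TPA, to 153 and 181 CPM under FA+TPA and to between 116 and 133 CPM in vehicle skin. Mrc1 is a member of this list and made up 43.2 and 185 CPM of the TPA sums. In scraped epidermis more cells of a type and more RNA per cell cannot be told apart. Other myeloid genes moved alike. Spp1, which encodes osteopontin, was at 3.14 and 31.2 CPM under TPA and at 1.58 and 1.86 CPM under FA+TPA. The complement receptor gene C5ar1 was at 1.13 and 7.21 CPM and at 0.253 and 0.959 CPM. The classical complement genes C1qa and C1qb, also macrophage markers, did not pass (0.20 ± 0.17 and 0.59 ± 0.17). Of the Ms4a genes, expressed in myeloid cells, 3 of 5 were higher (Ms4a6b, Ms4a6d and Ms4a4a), beside 0.849% of all genes tested. Neutrophil markers had 1 higher gene of 7, the granulocyte colony-stimulating factor receptor Csf3r (12.1 and 34.7 CPM under TPA, 3.1 and 3.6 CPM under FA+TPA). Their sum went the other way under TPA (950 and 402 CPM) and was 109 and 199 CPM under FA+TPA. The macrophage, neutrophil and Lilrb4a calls each ended in the fit of all 8 libraries (edgeR adjusted p from 0.073 to 0.29). Lilrb4a, an inhibitory receptor of myeloid cells, was the 1 other called gene within 10 Mb of Ddit4, where 115 genes were tested.

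Some matrix genes and matrix-degrading proteases were higher in knockout. Of all genes tested 0.849% were called higher and 1.02% lower. Of 18 collagen and matrix genes, 5 were higher (Fn1, Fbn1, Tnc, Eln and Col4a1) and 1 lower (Col12a1), with a median of 0.37. The fit of all 8 libraries called 0 of them higher and 1 lower, and DESeq2 2 higher and 1 lower. Of 21 proteases and EGFR ligands, 2 were higher (Mmp3 and Mmp12) and 0 lower, with a median of 0.16. Fn1, the fibronectin gene, was at 12.5 and 36 CPM under TPA and at 6.33 and 10.1 CPM under FA+TPA (1.18 ± 0.19, edgeR adjusted p = 0.0085). Fbn1, the gene of the microfibril protein fibrillin-1, was at 16.5 and 39.1 CPM and at 5.57 and 10 CPM (1.09 ± 0.15). Tnc, the gene of the wound matrix protein tenascin C, was at 301 and 400.2 CPM under TPA and at 22.2 and 33.9 CPM under FA+TPA. Col12a1, a collagen that associates with fibrils, was lower, at 89.8 and 51.3 CPM and at 52.7 and 29 CPM (-0.82 ± 0.10). The stromelysin gene Mmp3 was at 50.3 and 127 CPM under TPA and at 2.91 and 4.08 CPM under FA+TPA (1.14 ± 0.16, edgeR adjusted p = 0.0038). Mmp12, the macrophage elastase gene, was at 3.01 and 19.3 CPM and at 1.01 and 1.14 CPM. The protease inhibitor gene Timp3 (1.16 ± 0.16), the matricellular gene Thbs1 (0.63 ± 0.11) and the intermediate filament gene Vim (0.60 ± 0.09) were higher too. Of 35 collagen genes counted by name, 2 were higher and 2 lower, with a median of 0.17. Markers of cell types outside the epidermis moved beside these genes in part. None of 11 fibroblast markers was called, 8 were positive, and their median was 0.31. Their sum was 630 and 498 CPM under TPA and 342 and 440.4 CPM under FA+TPA. Col1a1 went from 233 to 134 CPM under TPA and from 95.4 to 146 CPM under FA+TPA, and Dcn, the decorin gene, from 20.1 to 44.3 CPM and from 28.9 to 31.4 CPM. Of 9 endothelial markers 0 were called and 8 were positive, with a median of 0.47. Of 8 adipocyte markers 1 was called higher (Retn), and all 8 were positive, with a median of 0.64. The part of RNA from these cell types in the matrix result was not tested.

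Genes of the follicle stem cell and sebaceous gland lists were higher in knockout where they passed. The hair gene Krtap3-2, described above, went the other way (-2.50 ± 0.20). Of 3 measured genes of the hair shaft and follicle keratin list 0 were called. Of 11 follicle stem cell genes 3 rose (Fgf18, Sox9 and Lhx2), beside 0.849% of all genes tested. A positive value was found for 10, and the median was 0.73. Fgf18, a growth factor of the resting follicle, was at 1.88 and 9.05 CPM under TPA and at 1.08 and 2.7 CPM under FA+TPA (1.92 ± 0.29, edgeR adjusted p = 0.0067). Lhx2, a transcription factor of follicle stem cells, was at 2.89 and 6.5 CPM and at 3.1 and 6 CPM (1.07 ± 0.23). Sebaceous genes showed a positive value in 13 of 14 members, but 1 passed: Mgst1, a membrane glutathione transferase, at 45 and 59.3 CPM under TPA and at 16.6 and 59.9 CPM under FA+TPA. The sebaceous sum was 2846 and 2981 CPM under TPA and 1607 and 3822 CPM under FA+TPA, so the list stood apart in 1 of the treated pairs. It also stood apart in vehicle skin, at 2232 and 3173 CPM in wild-type and at 5474 and 7090 CPM in knockout libraries. With library size as the only scaling, 12 sebaceous and 8 follicle stem cell genes passed, all higher. DESeq2 called 0 genes of either list, and the fit of all 8 libraries called 1 follicle and 0 sebaceous genes. Of cholesterol (25) and fatty acid synthesis (16) genes none passed.

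Further genes were higher in knockout under both treatments. Hspa8 (ENSMUSG00000015656; chr9:40800984-40810087), the constitutive heat shock chaperone gene, was at 102 and 215 CPM under TPA and at 97.7 and 188 CPM under FA+TPA (1.02 ± 0.10, edgeR adjusted p = 0.00023). It was called in 12 of 15 alternative fits, and 48.5% of its words occur in other genes, so its level is uncertain. Rab6b, a small GTPase of Golgi traffic, had the largest smaller ratio of both pairs among the higher genes named for size (with 0.5 CPM added), at 1.13 and 5.91 CPM and at 2.72 and 8.93 CPM (2.00 ± 0.25). Gpnmb, a transmembrane glycoprotein of macrophages and pigment cells, was at 4.96 and 13.6 CPM under TPA and at 20.7 and 45.6 CPM under FA+TPA (1.28 ± 0.13). The interferon-induced genes Xaf1 (1.34 ± 0.19) and Oasl2 (1.26 ± 0.24) were the called members of a list of 28, of which 26 had a positive value and the median was 0.42. Both calls ended in the fit of all 8 libraries (edgeR adjusted p = 0.058 and 0.13). In vehicle skin the median log2 ratio of the interferon list was 0.70. Gbp2b, an interferon-inducible GTPase, was at 2.64 and 8.74 CPM and at 1.9 and 5.04 CPM (1.59 ± 0.24). The central complement gene C3 was at 13.6 and 25.4 CPM and at 6.58 and 15.8 CPM (1.07 ± 0.15). Skint genes are relatives of the keratinocyte gene that selects gamma-delta T cells of the epidermis. Of 11 members 4 were higher, beside 0.849% of all genes tested: Skint3 (109 and 189.8 CPM under TPA, 93.4 and 185 CPM under FA+TPA), Skint4, Skint9 and Skint11. By sign 6 members were positive and 5 negative, with a median of 0.28. The calls of Skint3, Skint9 and Skint11 ended in the fit of all 8 libraries (edgeR adjusted p from 0.051 to 0.13). Of 19 early response genes 2 rose, Atf3 (0.93 ± 0.19) and Fosb (0.62 ± 0.13), beside 0.849% of all genes tested. Both calls ended in the fit of all 8 libraries (edgeR adjusted p = 0.39 and 0.76) and with DESeq2 (adjusted p = 0.65 and 0.72). By sign 10 of the 19 were positive and 9 negative. T cell markers (0 of 9 called) and Langerhans cell and MHC class II genes (0 of 8) summed to 21.8 and 19 CPM and to 843 and 829 CPM under TPA. Under FA+TPA the sums were 20.6 and 15.9 CPM and 529.7 and 682 CPM.

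The glycolysis, hypoxia, ribosome biogenesis, ATF4 and glucocorticoid target lists each held 1 called gene, where 1.87% of all genes tested were called. With so few members, 1 call does not set a list apart from all genes. Of 19 measured glycolysis identifiers 1 fell, the enolase gene Eno1 (127 and 65.3 CPM under TPA, 84 and 39.4 CPM under FA+TPA; -1.02 ± 0.10, edgeR adjusted p = 0.00022). The list median was -0.24 and 17 values were negative. Eno1b, a near copy with 88.8% shared words, was higher (0.96 ± 0.17), so both values are uncertain. Egln3, a prolyl hydroxylase that marks hypoxia-inducible factor for destruction, fell (358 and 245 CPM, 260.4 and 176 CPM; -0.55 ± 0.10) as the 1 called of 19 hypoxia genes. The snoRNP protein gene Nop58, the 1 called of 24 ribosome biogenesis genes, rose (80.1 and 156 CPM, 80.8 and 139.6 CPM; 0.89 ± 0.10). The glutamine transporter gene Slc1a5 was the 1 called of 27 ATF4 targets (16.4 and 27.7 CPM, 12.2 and 22.4 CPM; 0.82 ± 0.13). Of 24 measured glucocorticoid targets 1 was lower in knockout, the flavin monooxygenase gene Fmo2, at 6.71 and 1.57 CPM under TPA and at 139 and 74.5 CPM under FA+TPA (-1.19 ± 0.18, edgeR adjusted p = 0.0072). The list median was -0.01. Of 40 lists examined, 20 held no called gene, and their medians ranged from -0.43 to 0.47. These 20 lists had between 1 and 40 measured members, too few for 0 calls to set them apart from all genes. They include insulin and FoxO signalling, NF-kB feedback, NRF2 targets, oxidative phosphorylation, autophagy and the circadian clock.

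**Figure D4:**
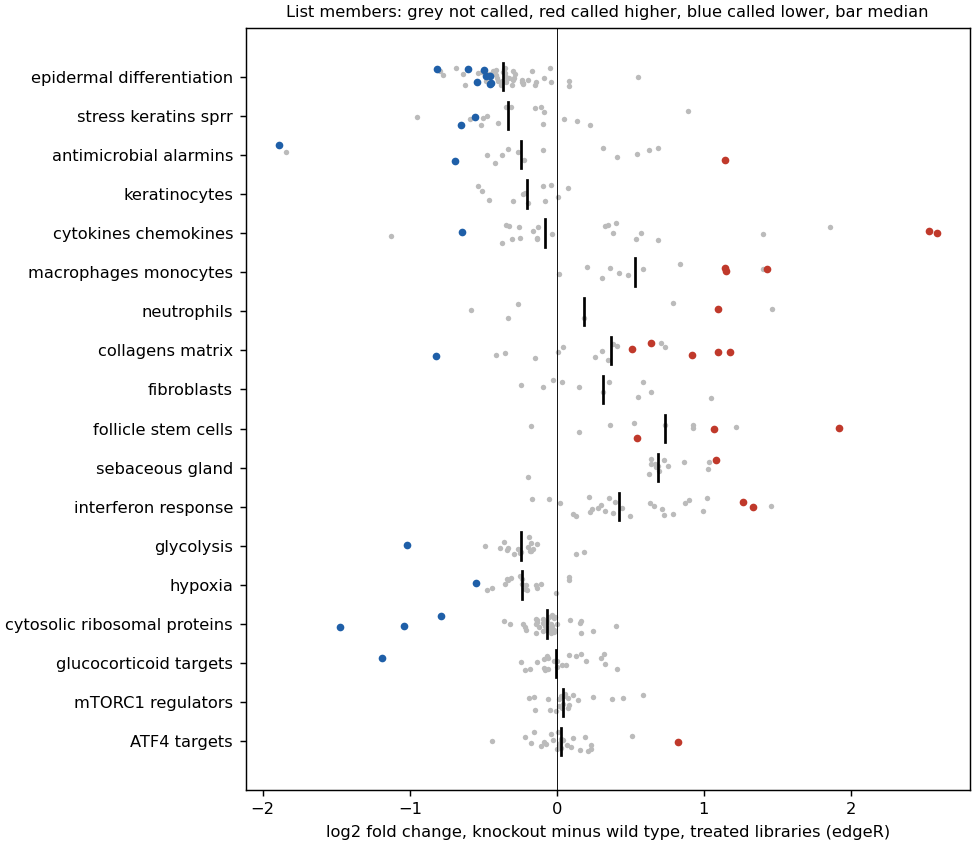
Each point is 1 measured gene of the list named at the left, placed by its log2 fold change of knockout minus wild type over both treatments; red and blue points were called higher and lower, grey points were not called, and the black bar is the list's median. The macrophage, follicle stem cell, sebaceous and interferon medians lie between 0.42 and 0.73, the differentiation median at -0.37, and those of mTORC1 regulators, ATF4 and glucocorticoid targets near 0.

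The vehicle libraries, which played no part in choosing these genes, were then read for the same genes. Of the 152 genes called higher in treated knockout skin, 107 (70.4%) had both knockout vehicle libraries above both wild-type ones, beside 20.6% of all genes tested. Of the 182 called lower, 139 (76.4%) had both knockout vehicle libraries below both wild-type ones, beside 18.5% of all. In the vehicle fit 439 of 20318 genes passed (2.16%; 286 higher, 1.41%, and 153 lower, 0.753%; edgeR). Of the treated calls, 54 higher genes (35.5% of the treated and 18.9% of the vehicle list) and 77 lower genes (42.3% and 50.3%) were called in vehicle skin in the same direction. Ddit4 was at 128 and 115 CPM in wild-type and at 18.7 CPM in both knockout vehicle libraries. H60c was at 24.9 and 26.9 CPM and at 7.51 and 9.73 CPM, Dsc2 at 40.6 and 51.2 CPM and at 12.2 and 14.7 CPM, and Hspa8 at 55 and 54.8 CPM and at 128 and 123 CPM. These 4 genes thus differed by genotype without TPA as well.

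**Figure D5:**
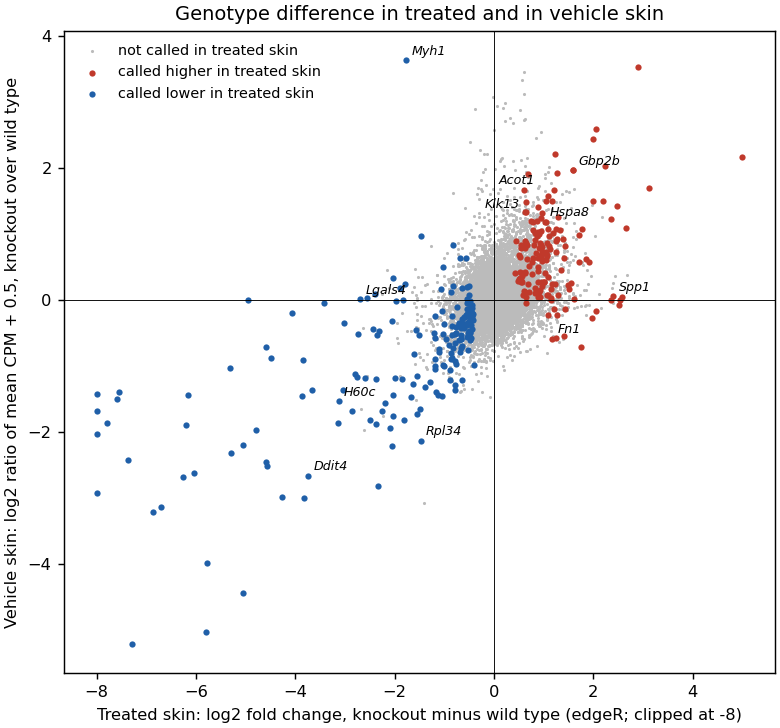
Each point is 1 gene, placed by the log2 fold change of knockout minus wild type in treated skin (x axis, clipped at -8) and by the log2 ratio of mean CPM + 0.5 in vehicle skin (y axis); colours mark the genes called in treated skin. Ddit4, H60c and Rpl34 were lower in both settings and Hspa8 and Gbp2b higher in both, while Lgals4 lies near 0 on the vehicle axis and Myh1 was lower in treated and higher in vehicle skin.

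Whether the genotype difference itself differed between treated and vehicle skin was tested in 1 fit of all 8 libraries. It passed for 4 of 20318 genes (0.0197%; edgeR), each with a more negative difference in treated skin, and 934 had an unadjusted p under 0.05. DESeq2 called 29 (4 more positive, 25 more negative). Lgals4 was at 10.8 and 9.99 CPM in wild-type and at 11.2 and 9.87 CPM in knockout vehicle skin, so the genotypes overlapped there and parted with treatment (-2.72 ± 0.20, edgeR adjusted p = 0.00061). Wild-type Lgals4 stood above vehicle under both treatments, and knockout Lgals4 stayed at 7.84 and 11.3 CPM. Klk13, a kallikrein protease of the upper epidermis, was at 1.19 and 1.22 CPM in wild-type and at 3.73 and 3.75 CPM in knockout vehicle skin, and at 230.4 and 174 CPM under TPA and 68.4 and 59.6 CPM under FA+TPA. Acot1, an acyl-CoA thioesterase gene, was at 10.3 and 12.5 CPM in wild-type and at 34.8 and 40.5 CPM in knockout vehicle skin, while the treated libraries lay between 17 and 25.6 CPM in both genotypes. Myh1, a myosin of skeletal muscle, was at 2.43 and 0.51 CPM in wild-type and at 25.2 and 22.7 CPM in knockout vehicle skin, at 7.15 and 3.23 CPM under TPA and at 40.4 and 8.75 CPM under FA+TPA. Skeletal muscle markers as a list summed to 34.8 and 47.6 CPM under TPA and to 189 and 154 CPM under FA+TPA. Their sums were 32.8 and 10.1 CPM in wild-type vehicle and 247 and 99.1 CPM in knockout vehicle libraries. Of 10 measured members 7 were positive in treated skin, with a median of 0.41, and Myh1 was the 1 called, as lower. That call ended in the treated comparison with the spread of all 8 libraries (edgeR adjusted p = 0.073) and was kept by DESeq2. Of the words of Myh1, 41% occur in other genes. The part of muscle RNA in the Myh1 result was not tested.

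The last comparison asked whether the genotype difference depended on FA. With 1 library per genotype and treatment, the single treated libraries were assumed to vary like the vehicle pairs. No gene passed in edgeR (0%), 660 of 20318 had an unadjusted p under 0.05, and DESeq2 called 7 (6 more positive with FA, 1 more negative). With 1 vehicle library left out edgeR called 184 genes (without wild-type vehicle 1), 89 (without wild-type vehicle 2), 57 (without knockout vehicle 1) or 55 (without knockout vehicle 2). For Spp1 the FA+TPA difference minus the TPA difference was -3.08 (edgeR adjusted p = 0.86) and for Mrc1 -1.60 (adjusted p = 1), although the CPM values of the 2 pairs lie far apart. On simulated counts for this comparison the test found 12% of 2-fold changes and 81% of 4-fold ones, with 19 of 112 calls false. A difference of the smaller size was thus mostly not detectable here.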

How the data were processed

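The submitters' processing notes name Trim Galore, STAR, HTSeq and the build mm10. Versions, annotation and strand setting were not given in the sources used here, so reads of antisense or overlapping genes may be mixed. The deposited values are raw read counts per Ensembl gene. The wild-type tables end their lines with a carriage return and the knockout tables do not; whether the genotypes were processed separately was not stated. Symbols and positions came from GENCODE M21 (54165 of 54232 identifiers matched). The 4 treated libraries were compared by edgeR 4.0.16 (R 4.3.3, quasi-likelihood, TMM, minimum count 10, terms for treatment and genotype), with Benjamini-Hochberg adjustment at 0.05. Vehicle and difference tests used all 8 libraries. CPM values were scaled by TMM over the 8 libraries. Alternatives included DESeq2 1.42.0 and limma-voom 3.58.1. On simulated counts the treated fit recovered 96% of 2-fold changes, with 16 of 212 calls false. These values describe the simulated counts alone. The share of false calls among the genes called in the measured libraries was not tested. The vehicle replicates of a genotype differed by more than sampling noise.

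The comparison, the lists and the rules were chosen with earlier results of these data known. Named were Ddit4, the 14 higher and 14 lower called genes with the largest smaller ratio of both pairs and a mean log2 CPM of at least 2 (identifier-like names left out), up to 3 called members per list, pathway genes and called genes within 10 Mb of Ddit4. Some genes the rule takes are not reported here. Dsc2, Fut2, Atp13a4, Calml3, Lce1d, Lce1e, Lce1f, Lce1i, Lce1j, Lce1k, Sprr2a3, Pglyrp1, Spp1, C5ar1, Timp3, Thbs1, Vim, Col4a1, Eln, Tnc, Rps15a, Eno1b, the Skint genes, Krt14, Col1a1, C1qa, C1qb, the Ms4a genes, Slfn4, Acot1 and Klk13 were chosen after their values were seen.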

Additional observations from a re-analysis of the deposited data

Results flagged for a closer look

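For 4 genes the genotype difference in treated skin, knockout minus wild type, differed from that in vehicle skin by a test of the difference itself (edgeR, all 8 libraries). The difference of the differences was -2.72 ± 0.20 on the log2 scale for Lgals4 (adjusted p = 0.00061), -5.82 ± 0.56 for Myh1 (adjusted p = 0.005), -1.93 ± 0.22 for Klk13 (adjusted p = 0.0175) and -1.75 ± 0.21 for Acot1 (adjusted p = 0.0235). Lgals4 was also called in treated skin itself, as was Myh1, whereas Klk13 (-0.30 ± 0.10) and Acot1 (-0.02 ± 0.12) were not and differed by genotype in vehicle skin.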

How the results depend on the processing

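For knockout minus wild type in treated skin, 334 genes were called, 651 with library size only, 1085 with no low-count filter, 77 with a minimum count of 50, 98 with DESeq2, 0 without a treatment term, 106 with all 8 libraries and 3 residual degrees of freedom, 95 with 1 mean per group, and 14 among protein-coding genes with at most 10% shared words. With 1 treated library left out in the fit of all 8 libraries, between 28 and 66 were called. RLE, limma-voom and removal of Gm26917 or of genes near Ddit4 gave 332 to 417. For the 93 called genes that were named, 795 of 1440 values over the alternatives kept the call, 645 lost it and 0 reversed; 34 of the 93 were called in at least 10 alternatives. In vehicle skin 439 genes were called, 832 with the replicate block in the vehicle libraries alone (454 without the block) and between 150 and 571 with 1 vehicle library left out (150 without wild-type vehicle 1, 231 without knockout vehicle 2). Vehicle libraries with the same number did not deviate together (r = -0.07 over 20318 genes). With 1 pair of vehicle libraries per genotype, this cannot tell whether libraries with the same number were handled together. For the treated minus vehicle difference 4 genes were called, 9 with library size only, 169 with no low-count filter, 29 with DESeq2, and between 2 and 18 with 1 library left out. For FA+TPA minus TPA 0 were called, 7 with DESeq2 and between 55 and 184 with 1 vehicle library left out. Of genes at least 2-fold apart under both treatments there were 98, 202 with a pseudocount of 0.1 CPM, 36 with 2 CPM and 433 at 1.5-fold. The cause of these changes was not tested.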
